A study of Homo sapiens with 42 samples.

Results

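AP-1 is the transcription factor formed by pairs of FOS and JUN family proteins, and the chromatin around the genes that encode 8 of its subunits was followed here. The members were FOS, FOSB, FOSL1, FOSL2, JUN, JUNB, JUND and ATF3, 8 of 19970 protein-coding genes in the RefSeq table of GRCh38.p14. Every ATAC-seq peak whose summit lay inside one of these genes or within 50 kb of it was taken, and peaks within 1 kb of either end of the gene (gene-end peaks) were kept apart from the rest (distal peaks). Of 9861908 deposited peaks in all samples, 7665 lay at the 8 loci, with 104 to 283 in a sample.

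ATAC-seq marks accessible chromatin through the insertion of adapters by a transposase. The 42 samples came from 7 established human lines. MV411 is an acute myeloid leukemia line, RD a rhabdomyosarcoma, A375 a melanoma and 92-1 a melanoma of the eye's uvea. DU4475 comes from a carcinoma of the breast, HCT116 from one of the colon and 22RV1 from one of the prostate. All lines are labelled wild type, and each gave 3 biological replicates with DMSO, the solvent control, and 3 with FHT-1015, an inhibitor of both SMARCA4 and SMARCA2, after 4 h. No dose is stated in the labels, and MV411 is not among the 6 lines in the design text of the series. FHT-1015 targets the ATPases of the BAF (SWI/SNF) complexes, which slide or evict nucleosomes, and the comparison asks how the loci look once those motors are blocked.

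FOS proteins cannot pair with one another and need a JUN partner, whereas JUN proteins also pair among themselves. FOS, FOSB, JUN, JUNB and ATF3 are immediate-early or stress-response genes. They are transcribed within minutes of growth factor or stress signals, through kinases that act on factors already bound at their promoters. FOSL1 and FOSL2 are longer-lived FOS relatives, and JUND is broadly expressed. The AP-1 dimer binds the sequence TGANTCA, and BAF complexes are known to be brought to AP-1 sites at enhancers.

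The RefSeq promoters of FOS, FOSB and JUNB, whose gene-end peaks moved up in rank with FHT-1015, are printed beside those of JUN and JUND, for which no such change was called. Each runs from 250 bases before to 50 bases after the gene start, 5′ to 3′ on the strand of the gene, in build GRCh38.p14. FOS lies on the plus strand at chr14:75278578-75278877, FOSB on the plus strand at chr19:45467746-45468045, JUNB on the plus strand at chr19:12791236-12791535, JUN on the minus strand at chr1:58783998-58784297 and JUND on the minus strand at chr19:18281573-18281872. Capitals mark matches on either strand to TGANTCA (the AP-1 site), TGACGTCA (the full site of CREB and ATF factors), TGACATCA (a variant that JUN-ATF2 pairs are known to bind) and TGACGT (the shorter CREB/ATF core).
FOS: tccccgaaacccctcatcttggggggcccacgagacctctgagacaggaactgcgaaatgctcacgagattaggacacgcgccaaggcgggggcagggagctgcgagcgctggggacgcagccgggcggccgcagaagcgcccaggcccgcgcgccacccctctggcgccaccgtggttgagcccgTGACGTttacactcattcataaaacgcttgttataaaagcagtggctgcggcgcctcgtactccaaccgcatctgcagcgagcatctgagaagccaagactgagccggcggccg
FOSB: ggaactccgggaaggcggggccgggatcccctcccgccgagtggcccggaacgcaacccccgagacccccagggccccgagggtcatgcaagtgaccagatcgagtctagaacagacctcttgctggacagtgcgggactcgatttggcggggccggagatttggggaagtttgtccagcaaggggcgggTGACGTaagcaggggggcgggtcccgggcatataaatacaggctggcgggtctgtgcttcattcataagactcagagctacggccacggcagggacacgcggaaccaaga
JUNB: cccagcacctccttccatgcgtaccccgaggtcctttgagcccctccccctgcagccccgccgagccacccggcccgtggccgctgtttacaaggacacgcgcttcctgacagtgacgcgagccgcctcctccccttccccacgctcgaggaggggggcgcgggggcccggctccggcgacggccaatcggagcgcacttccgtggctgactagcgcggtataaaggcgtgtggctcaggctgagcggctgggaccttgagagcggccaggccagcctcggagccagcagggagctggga
JUN: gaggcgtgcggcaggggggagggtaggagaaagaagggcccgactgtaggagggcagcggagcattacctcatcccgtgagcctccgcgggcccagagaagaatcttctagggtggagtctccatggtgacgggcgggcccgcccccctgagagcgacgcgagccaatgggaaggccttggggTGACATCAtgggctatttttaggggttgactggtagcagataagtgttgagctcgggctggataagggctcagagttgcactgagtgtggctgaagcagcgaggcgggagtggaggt
JUND: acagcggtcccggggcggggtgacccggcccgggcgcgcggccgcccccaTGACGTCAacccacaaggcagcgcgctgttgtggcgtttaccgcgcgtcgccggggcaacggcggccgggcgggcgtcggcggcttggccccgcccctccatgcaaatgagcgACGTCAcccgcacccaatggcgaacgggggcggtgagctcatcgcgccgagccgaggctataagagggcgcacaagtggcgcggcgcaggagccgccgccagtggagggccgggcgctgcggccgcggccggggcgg
None of these 5 promoters held TGANTCA, a sequence found in 6.16% of 22155 promoters of protein-coding genes in the table, whereas the promoter of FOSL2 held it once. TGACGT occurred in FOS at −64 from the gene start and in FOSB at −60. FOSL2, for which no change in rank was called, had it at −66. Of all promoters 8.92% held it. JUN had TGACATCA at −67, a match that 2.12% of promoters shared. JUND had TGACGTCA at −200, as 2.26% of promoters did. That 8-base site reads as TGACGT on both strands, and JUND held 1 more TGACGT nearer its start. JUNB had none of the 4. ATF3 has 2 promoters in the table, the first with 1 TGACATCA and the second with none of the 4, and FOSL1 was not matched.

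The samples differed in depth, so peaks were compared within lists of equal length: the 30000 peaks of each sample with the largest −log10 p. Strict peaks (−log10 q of at least 5) numbered 1412 to 121774 per sample, and the lists as deposited 114291 to 431956 on chromosomes 1 to 22 and X. In 16 samples the weakest of the 30000 fell short of the strict threshold. FHT-1015 replicates 2 and 3 of 92-1 stand apart, with 2037 and 1412 strict peaks and with 19577 and 21637 of their 30000 drawn at random from peaks of tied p, so each result is also given without 92-1 where it changes. The share of the 30000 that lay at gene ends was higher with FHT-1015 in 6 of the 7 lines, for example 23.9% ± 0.323 against 33.1% ± 0.140 (SD, n = 3) in MV411 and 44.7% ± 0.986 against 58.5% ± 3.01 in A375. Its part in the results below was not tested. Defining markers of the labelled tissue had gene-end peaks in the DMSO samples of RD (MYOD1, MYOG and CHRNA1, 3 of 3 samples each) and DU4475 (EPCAM, KRT8 and KRT18, 3 of 3 each). In MV411 SPI1 and PTPRC had one in 2 samples each and CD33 in 1, and in HCT116 CDX2 had one in 2 and CDX1 and VIL1 in none. MITF had one in 2 samples of 92-1 and 3 of A375, SOX10 and PMEL in none of either, and in 22RV1 KLK3 and HOXB13 had one in none. Several of these genes also had peaks in other lines, among them CDX2, SPI1, MITF and PMEL in 3 of 3 samples of DU4475, so these markers do not set the lines apart. A peak can weaken because fewer cells have the site open or because it is less open in each cell, and these cannot be told apart here.

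With DMSO, the gene-end peaks of the 8 genes already differed in strength, both by gene and by line. The strongest gene-end peak of each gene was ranked among the 100000 strongest peaks of its sample, rank 1 being the smallest p, with ranks rounded to whole numbers and a missing peak placed just below the list. JUN was within the first 10000 in 21 of 21 DMSO samples, with a lowest rank of 1158, a median of 3410 and a highest of 7711. FOSL2 (median 7091) and JUND (median 6301) were within 10000 in 14 samples each, and JUND ranked 36580, 51350 and 24623 in 92-1. FOS (median 17217) reached it in 7 samples, FOSL1 (median 30035) in 4, JUNB (median 31156) in 3 and FOSB (median 65725) in 0. JUND in DU4475, with ranks of 84, 127 and 180, was the strongest of all. ATF3 had no gene-end peak in the first 100000 of any DMSO sample and 1 in the FHT-1015 samples, at rank 66782 in MV411. DU4475 also had the strongest FOS, FOSB and JUNB peaks, and 92-1 the weakest for FOS, FOSB, FOSL1, FOSL2, JUNB and JUND, judged by the mean rank of the 3 DMSO samples.

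With FHT-1015, the gene-end peaks of FOS, FOSB and JUNB moved up in rank, and no member's moved down. The exact permutation test within lines called 3 of the 7 members tested (Benjamini-Hochberg over all genes, adjusted p below 0.05), where 5.92% of 18229 genes were called in this direction and 1.46% in the other. At an unadjusted p below 0.05 the test found the same 3 upward and 0 downward, beside 3394 and 936 of all 18229 genes. The median change over the 7 members was −0.35 log2 units of rank, against −0.12 over all genes.

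FOS, the prototype partner of JUN, showed the largest shift over the 7 lines, though not without 92-1 (FOS −0.85, FOSB −1.01 log2 units). In 92-1 its ranks were 54754, 44779 and no peak with DMSO and 9073, 9099 and 5151 with FHT-1015. In MV411 they were 51227, 47959 and 55395 with DMSO and 26417, 9941 and 16729 with FHT-1015. In RD they were 13243, 13767 and 7872 against 3497, 7379 and 2886. In these 3 lines every FHT-1015 sample ranked above every DMSO sample, and over all genes 11.0% of pairs of gene and line separated in this direction and 3.47% in the other. In A375 the ranks were 11320, 32665 and 6957 against 5268, 10648 and 21736, and in HCT116 21615, 9816 and 19883 against 12627, 17595 and 8662. In 22RV1 they were 21678, 8383 and 17217 against 14265, 9636 and 14110. DU4475, where FOS was strongest, had 1942, 3548 and 3188 against 1365, 1472 and 2228. The groups overlapped in these 4 lines. Over the 7 lines the log2 rank changed by −1.16 ± 0.202 (SE), with a lower mean in 7 of 7 lines (adjusted p = 0.00624, exact permutation test). The median position of its summit was −327 bp from the gene start with DMSO and −318 with FHT-1015, just upstream of the printed window.

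JUNB encodes a JUN protein that often restrains the others. In A375 its ranks were 41978, 38504 and 24747 with DMSO and 8458, 3198 and 15144 with FHT-1015. In 22RV1 they were 31039, 35303 and 30592 against 11612, 20997 and 17989. In MV411 they were 55339, 33313 and 26049 against 16887, 23935 and 24584. The groups did not overlap in these 3 lines, beside 11.0% of pairs of gene and line that separated upward over all genes and 3.47% downward. RD had 30317, 35709 and 34834 against 23557, 61003 and 18455, and HCT116 13005, 18873 and 31157 against 10490, 6126 and 32637. DU4475 had 5643, 7960 and 5839 against 6891, 6745 and 3978, and 92-1 had 91638, 80662 and no peak against 19872 and, in the other two samples, no peak. Groups overlapped there. The log2 rank changed by −0.80 ± 0.217 (SE; adjusted p = 0.0237, exact permutation test). JUNB had peaks at both ends of its short gene, and the stronger of them was either the one at the start or the one about 2 kb along, just past the gene's end.

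FOSB, the FOS relative known for its stable splice form in neurons, had the weakest gene-end peaks with DMSO. In 22RV1 its ranks were no peak, 70460 and 54149 with DMSO and 25232, 23503 and 31906 with FHT-1015. In RD they were 67198, 67090 and 41704 against 16136, 9657 and 38042. Both lines separated by these ranks, RD by little. In A375 they were 71895, no peak and 27473 against 20474, 31608 and 17800, and in MV411 59615, 65725 and 39510 against 17658, 64181 and 20972. In HCT116 they were no peak, 13843 and 21896 against 18582, 35630 and 10117. In DU4475 the groups overlapped, with 20591, 15715 and 18206 against 21771, 14814 and 18741, and 92-1 had no such peak in any of its 6 samples. The log2 rank of FOSB changed by −0.87 ± 0.217 (SE; adjusted p = 0.0182, exact permutation test).

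For the other 4 members no change in rank was called. JUN, the main DNA-binding partner in AP-1, changed by −0.30 ± 0.318 (SE) log2 units (adjusted p = 0.669), FOSL2 by −0.35 ± 0.251 (0.468), FOSL1, which is often high in invasive carcinoma, by −0.25 ± 0.161 (0.387) and JUND by −0.21 ± 0.274 (0.720), all by the exact permutation test. Single lines still separated: JUN in MV411, with 5013, 5450 and 7711 against 3503, 2671 and 3140, FOSL2 in 22RV1, with 6711, 4584 and 4695 against 1837, 3117 and 2188, JUND in MV411, with 15954, 13563 and 8442 against 6320, 6688 and 7685, and FOSL1 in RD and MV411. Over all genes 11.0% of pairs of gene and line separated upward and 3.47% downward, counted in the log2 steps of 0.25 used for the test. In those steps JUND separated in 0 lines. With 3 samples against 3, an exact test within a line cannot go below p = 0.1.

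These are ranks, and they shift when other peaks leave or enter the list. With ranks taken only within the 30000 strongest peaks, FOS (−0.85, adjusted p = 0.00725) and JUNB (−0.61, 0.00789) were called and FOSB was not (−0.29, 0.0771), by the exact permutation test. The pileup at the FOS peak, a whole number recovered from the deposited fold and p, was 32, 30 and 25 with DMSO and 22, 40 and 30 with FHT-1015 in MV411, so the pileups overlapped where the ranks did not. At the strongest JUNB peak of MV411 it was 42, 50 and 49 against 41, 32 and 33, so that each pileup was lower with FHT-1015 where the ranks were nearer the top. In A375 the JUNB pileup was 41, 45 and 27 against 61, 193 and 54, each higher with FHT-1015. The sample with 193 also had the highest A375 pileups at FOSL2 (173), JUN (159) and JUND (154). Pileups were not scaled here for the depth of a sample, and the part of depth in them was not tested. In 92-1 the FOS pileup was 14 and 6 in the DMSO samples with a peak and 17, 5 and 5 with FHT-1015, with overlap. When peaks were ranked only among the 10000 strongest gene-end peaks of each sample, FOS changed by −0.58 (adjusted p = 0.0814), JUNB by −0.21 (0.405) and FOSB by −0.06 (0.731), and none was called by the exact permutation test (0.855% of 14276 genes upward, 1.76% downward). Without MV411, FOS was called (−1.07, adjusted p = 0.0463) and FOSB (−0.86, 0.0588) and JUNB (−0.79, 0.102) were not, where 1.06% of genes were called upward and 0.729% downward. Without 92-1 all 3 were called, FOS at −0.85, FOSB at −1.01 and JUNB at −0.82, beside 16.2% of genes upward and 1.74% downward (exact permutation test).

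**Figure D1:**
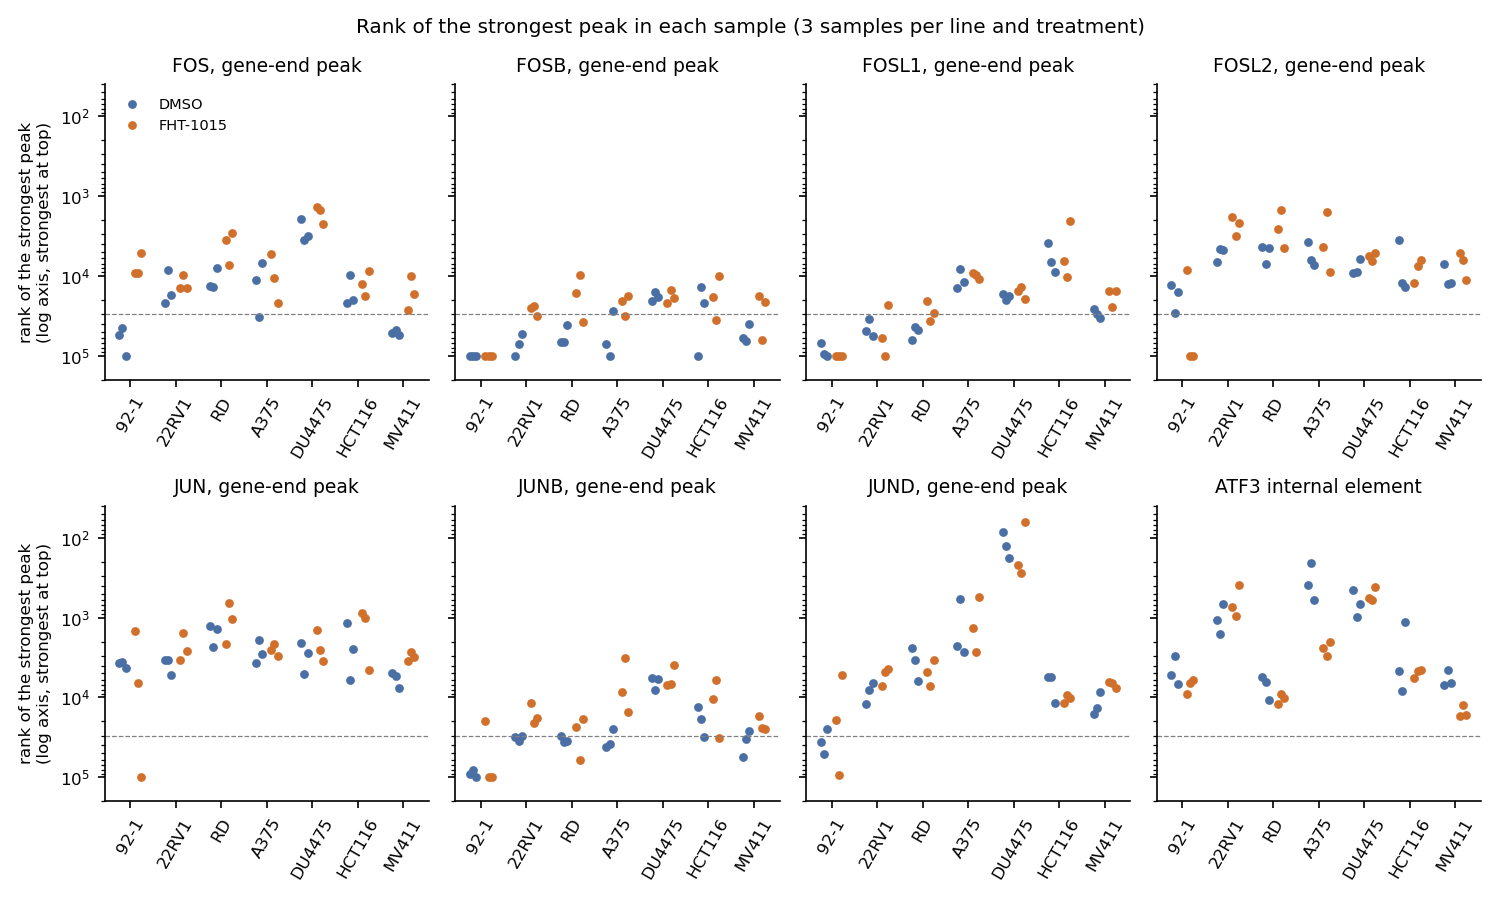
Rank of the strongest gene-end peak of 7 genes, and of the peak inside ATF3, in each sample (log axis, strongest at the top, samples with no peak placed just below 100000), by cell line, DMSO in blue and FHT-1015 in orange. The dashed line is rank 30000; FOS points with FHT-1015 lie above the DMSO points in 92-1, RD and MV411, and JUNB points do so in 22RV1, A375 and MV411.

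The number of gene-end peaks among the 30000 strongest gave a similar but weaker picture. FOS had at least 1 gene-end peak in each of the 21 FHT-1015 samples, and with DMSO it had 0 in each sample of 92-1 and MV411. In MV411 the FOS peaks with DMSO lay below the first 30000, at ranks 51227, 47959 and 55395. Over lines its mean went from 1 to 1.62 (+0.62 ± 0.095 SE, adjusted p = 0.0498), and JUNB's from 0.619 to 1.76 (+1.14 ± 0.243 SE, adjusted p = 0.0348; exact permutation test for both). These 2 of 7 members stand beside 1.15% of 14556 genes called higher and 0.0550% called lower. FOS was apart in 92-1, in A375 (1, 0 and 1 against 2, 2 and 2) and in MV411 (0, 0 and 0 against 1, 2 and 2), JUNB in 22RV1 (0, 0 and 0 against 2, 3 and 2), FOSL2 in 22RV1 and RD, and JUND in A375. Over all genes, 3.52% of pairs of gene and line separated upward and 1.08% downward. FOSB (+0.52, adjusted p = 0.216), FOSL1 (+0.33, 0.287), FOSL2 (+0.62, 0.146) and JUND (+0.62, 0.290) were not called, and JUN had 1.86 in both groups. FOS lost its call when any DMSO sample of MV411 was left out (adjusted p up to 0.0510) or without 92-1 (0.113), where 2.00% of genes were called higher and 0.0422% lower, and where JUNB and FOSL2 (+0.83, 0.0424) were called. Without MV411 both FOS (0.270) and JUNB (0.179) lost theirs, with 0.0140% of genes higher and 0% lower. With strict lists (0.316% lower, 0% higher) and deposited lists (0% each way) neither was called, and the FOS difference was −0.10 and −0.19, all by the exact permutation test.

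Distal peaks were more numerous with FHT-1015 at FOSB, JUNB and FOSL1 in lists of equal length. FOSB went from 8.57 to 11.95 distal peaks (+3.38 ± 0.684 SE, higher in 7 of 7 lines, adjusted p = 0.00354), JUNB from 4.29 to 6.57 (+2.29 ± 0.515, 7 of 7 lines, 0.00337) and FOSL1 from 5.95 to 8.10 (+2.14 ± 0.407, 5 of 7 lines, 0.0102), by the exact permutation test. Of all 19716 genes 12.9% were called higher and 3.26% lower. These 3 genes lie in gene-dense DNA: 10 other protein-coding genes fall in the window of FOSL1, 8 in that of JUNB and 4 in that of FOSB. With peaks at the ends of those other genes left out, FOSL1 changed by 0.095 (adjusted p = 1), while FOSB (+2.19, 0.0212) and JUNB (+1.76, 0.00523) were still called, beside 3.05% of genes higher and 2.27% lower (exact permutation test).

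At FOSB, MV411 had 5, 5 and 2 distal peaks with DMSO and 11, 12 and 8 with FHT-1015. 22RV1 had 4, 3 and 5 against 8, 11 and 10, and A375 had 14, 11 and 12 against 19, 20 and 15. FOSB was apart in these 3 lines, where 7.63% of pairs of gene and line separated upward over all genes. At JUNB, A375 had 1, 4 and 3 against 5, 8 and 7, and MV411 had 3, 0 and 1 against 4, 4 and 4. At FOSL1, A375 had 8, 8 and 8 against 14, 17 and 14, RD 5, 7 and 3 against 10, 8 and 8, and MV411 3, 3 and 5 against 6, 6 and 6. The groups of 92-1, DU4475 and HCT116 overlapped at all 3 genes. At an unadjusted p below 0.05 (exact permutation test), 0 of the 8 members passed downward and 4 upward, beside 1397 and 4387 of all 19716 genes. FOS (3.05 and 2.90), JUN (2.14 and 1.95), FOSL2 (0.905 and 1.14), JUND (3.00 and 3.71) and ATF3 (7.10 and 6.38) had mean numbers for which no change was called. Within single lines 3 of these 5 separated: ATF3 downward in A375 (8, 9 and 9 against 5, 5 and 7), and upward FOSL2 in 22RV1 (0, 0 and 0 against 1, 3 and 3) and JUND in MV411 (2, 2 and 2 against 4, 5 and 4). Over all genes 3.97% of pairs separated downward.

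**Figure D2:**
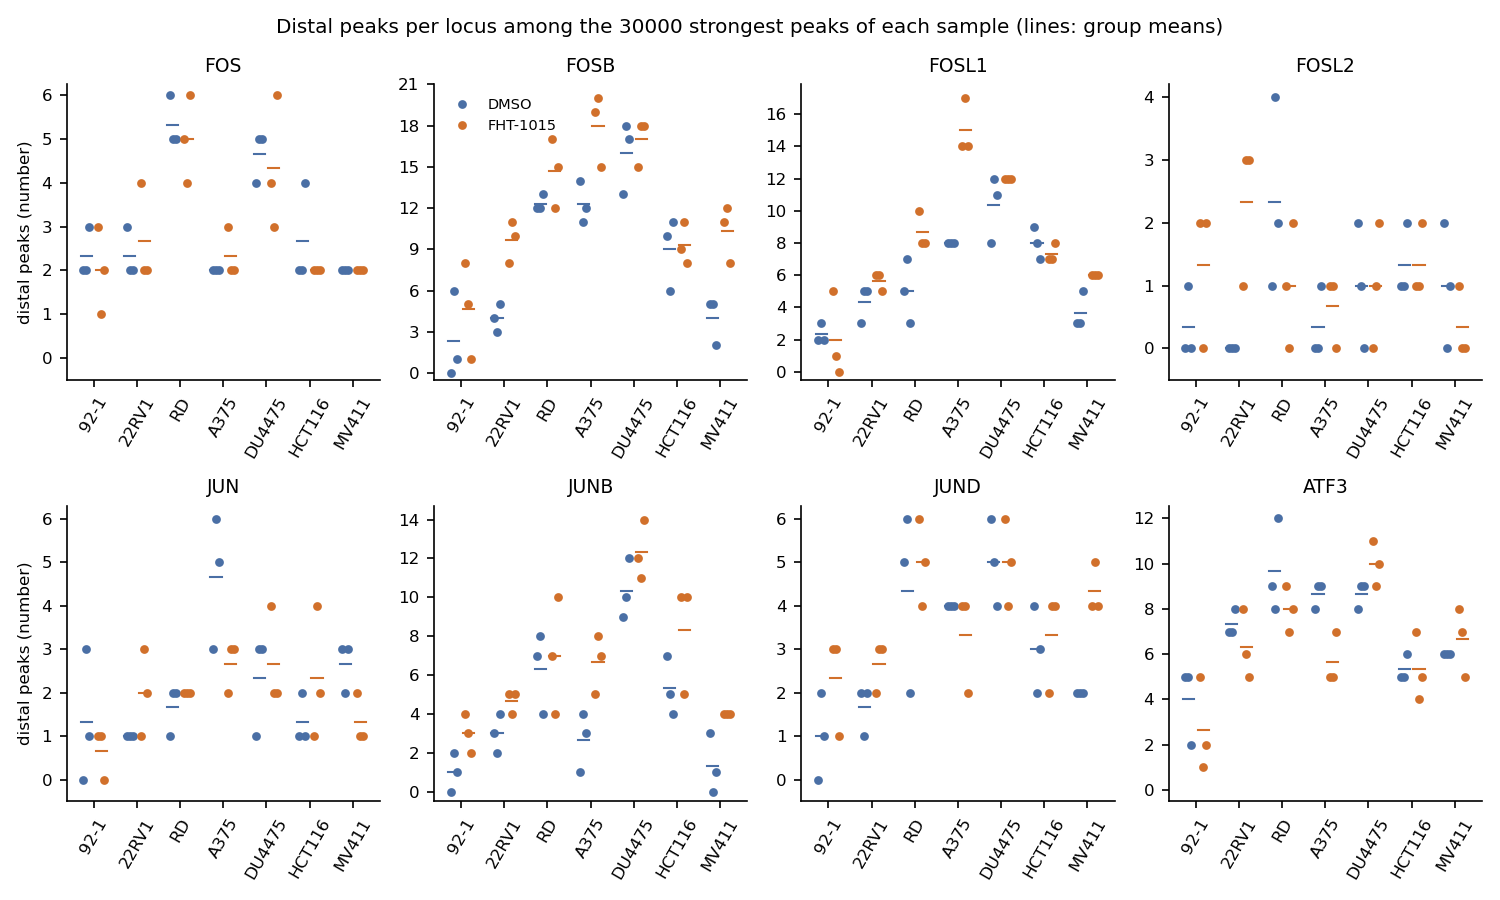
Number of distal peaks per locus among the 30000 strongest peaks of each sample (points) with group means (short lines), by cell line, DMSO in blue and FHT-1015 in orange, with vertical scales that differ between genes. FOSB separates in 22RV1, A375 and MV411, and ATF3 is lower with FHT-1015 in A375.

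The call for FOSL1 was also lost in a window of 25 kb (+1.24, adjusted p = 0.0545) and with 1 summit per peak interval (+0.90, 0.147), where JUND was called in its place (+1.38, 0.00264), by the exact permutation test. All 3 calls depended on the length of the lists. With the 100000 strongest peaks no member was called (genes called higher 3.36%, lower 2.07%), nor with the deposited lists (0% and 0.0201%). With the 10000 strongest, FOSB (+1.52, 0.0110), FOSL1 (+1.29, 0.0168) and JUND (+0.62, 0.0375) were called higher, ATF3 lower (−0.90, 0.0462) and JUNB not (+0.38, 0.369), beside 10.6% of genes higher and 2.88% lower, by the exact permutation test. Among strict peaks, all 8 members had fewer distal peaks with FHT-1015. Of these, 5 were called: ATF3 (−4.14, adjusted p = 1.78e-04), FOS (−1.76, 0.0129), FOSL2 (−1.76, 0.0126), JUN (−1.38, 0.00551) and JUND (−1.57, 0.0335), by the exact permutation test. FOSB (−1.19, 0.40), JUNB (−1.29, 0.247) and FOSL1 (−1, 0.326), the 3 that were higher in equal lists, were not called. Of all 19728 genes 53.8% were called lower and 0.00507% higher, and the mean number of strict peaks was lower with FHT-1015 in 7 of 7 lines. At ATF3, strict distal peaks numbered 13, 12 and 14 in RD with DMSO and 5, 3 and 7 with FHT-1015, 13, 14 and 12 against 8, 8 and 8 in 22RV1, and 15, 13 and 15 against 12, 8 and 8 in MV411. In HCT116 they were 3, 5 and 6 against 5, 4 and 3. The first 3 lines separated and HCT116 did not, and the remaining lines are not listed here. No share of separating pairs of gene and line over all genes is given for strict peaks. Whether ATF3 separated in more lines than the fall in strict peaks would give was not tested.

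To follow single elements, summits of all samples were merged into regions of 500 bp, and a sample had a region if one of its 30000 peaks overlapped it by at least 100 bp. The 8 loci held 153 of 224003 regions: 16 at the ends of the members, 26 at the ends of other genes and 111 elsewhere. Of these, 47 appeared in 1 sample only, and 1 in all 42. No region at the loci was called over the 7 lines by the exact permutation test, nor was any of the 108443 tested in the genome (0% in each direction). At an unadjusted p below 0.05, 10 of the 106 regions tested at the loci were more frequent with FHT-1015 and 0 less frequent, beside 1699 and 2445 in the genome. Among strict peaks 0.00201% of regions were called less frequent and 0% more, none of them at the loci.

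The 3 smallest p belonged to JUNB. The region over the JUNB start (chr19:12791232-12791731) was called in 4 DMSO and 13 FHT-1015 samples (p = 0.001, adjusted p = 0.429, exact permutation test), and it went from 0 to 3 of 3 samples in 22RV1 and was in 3 of 3 with both treatments in DU4475. The region at its 3′ end (chr19:12793416-12793915) was called in 6 and 15 samples (p = 0.00352, adjusted 0.489, exact test). An element upstream, outside the gene (chr19:12777495-12777994), was called in 1 and 8 (p = 0.004, adjusted 0.489, exact test), 3 of the 8 in A375 and 3 in RD. The FOSB start (chr19:45467695-45468194) had 5 and 13 samples, and the region just upstream of the FOS start (chr14:75278254-75278753) 14 and 19, with MV411 going from 0 to 3 samples. Among strict peaks the region there (chr14:75278263-75278762) was in 19 and 19 samples, and in 3 of 3 of MV411 with either treatment.

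Other elements were present whatever the treatment. FOS was flanked by a pair of distal regions outside the gene, one upstream (chr14:75258868-75259367, 21 DMSO and 20 FHT-1015 samples) and one downstream (chr14:75294031-75294530, 20 and 19). The JUN start (chr1:58783821-58784320) was open in 21 and 20 samples, the FOSL2 start (chr2:28392479-28392978) in 21 and 19, and the JUND start (chr19:18281604-18282103) in 19 and 19. The most frequent distal regions of the other loci were also alike in number: at JUN chr1:58816255-58816754 (15 and 17), at JUNB chr19:12775483-12775982 (15 and 18), and, at the ends of other genes, at JUND chr19:18322882-18323381 (20 and 19), at FOSB chr19:45485208-45485707 (17 and 18) and at FOSL1 chr11:65859309-65859808 (18 and 20). FOSL2 had no frequent distal region. Its most frequent one, inside the gene at chr2:28413453-28413952, was found in 4 samples with DMSO and in 1 with FHT-1015.

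ATF3 encodes a stress-induced factor of the ATF family that pairs with JUN proteins. It had no gene-end peak among the 30000 strongest of any sample, and instead a region inside the gene (chr1:212608496-212608995) was open in 21 and 21 samples. The summit lay at a median of 43219 bp from the listed start with DMSO, downstream of the first and upstream of the second start in the promoter table. ATF3 is known to be transcribed from alternative promoters, and the tables used here do not say whether this element is one. The rank of the peak there differed between groups in some lines. In A375 it was 394, 208 and 604 with DMSO and 2414, 3057 and 2011 with FHT-1015, and in MV411 7049, 4498 and 6636 against 17253, 12578 and 16480. DU4475 had 452, 989 and 671 against 575, 594 and 419, with overlap. The element was picked for its frequency with DMSO, so these ranks are a description. A second element inside ATF3, near its listed start (chr1:212567018-212567517), was called in 11 and 5 samples (p = 0.0858, exact test) and went from 3 to 0 of 3 in A375 and from 1 to 3 of 3 in DU4475. Among strict peaks it was in 18 and 7 samples (p = 2e-04, adjusted p = 0.196, exact test). The next smallest p for less frequent regions were those of a region outside JUN, downstream of it (chr1:58755434-58755933, 5 and 1 samples, p = 0.095, exact test), lost in MV411, and of 3 regions tied at p = 0.1, the first of them outside ATF3 (chr1:212636547-212637046, 7 and 3 samples, exact test).

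**Figure D3:**
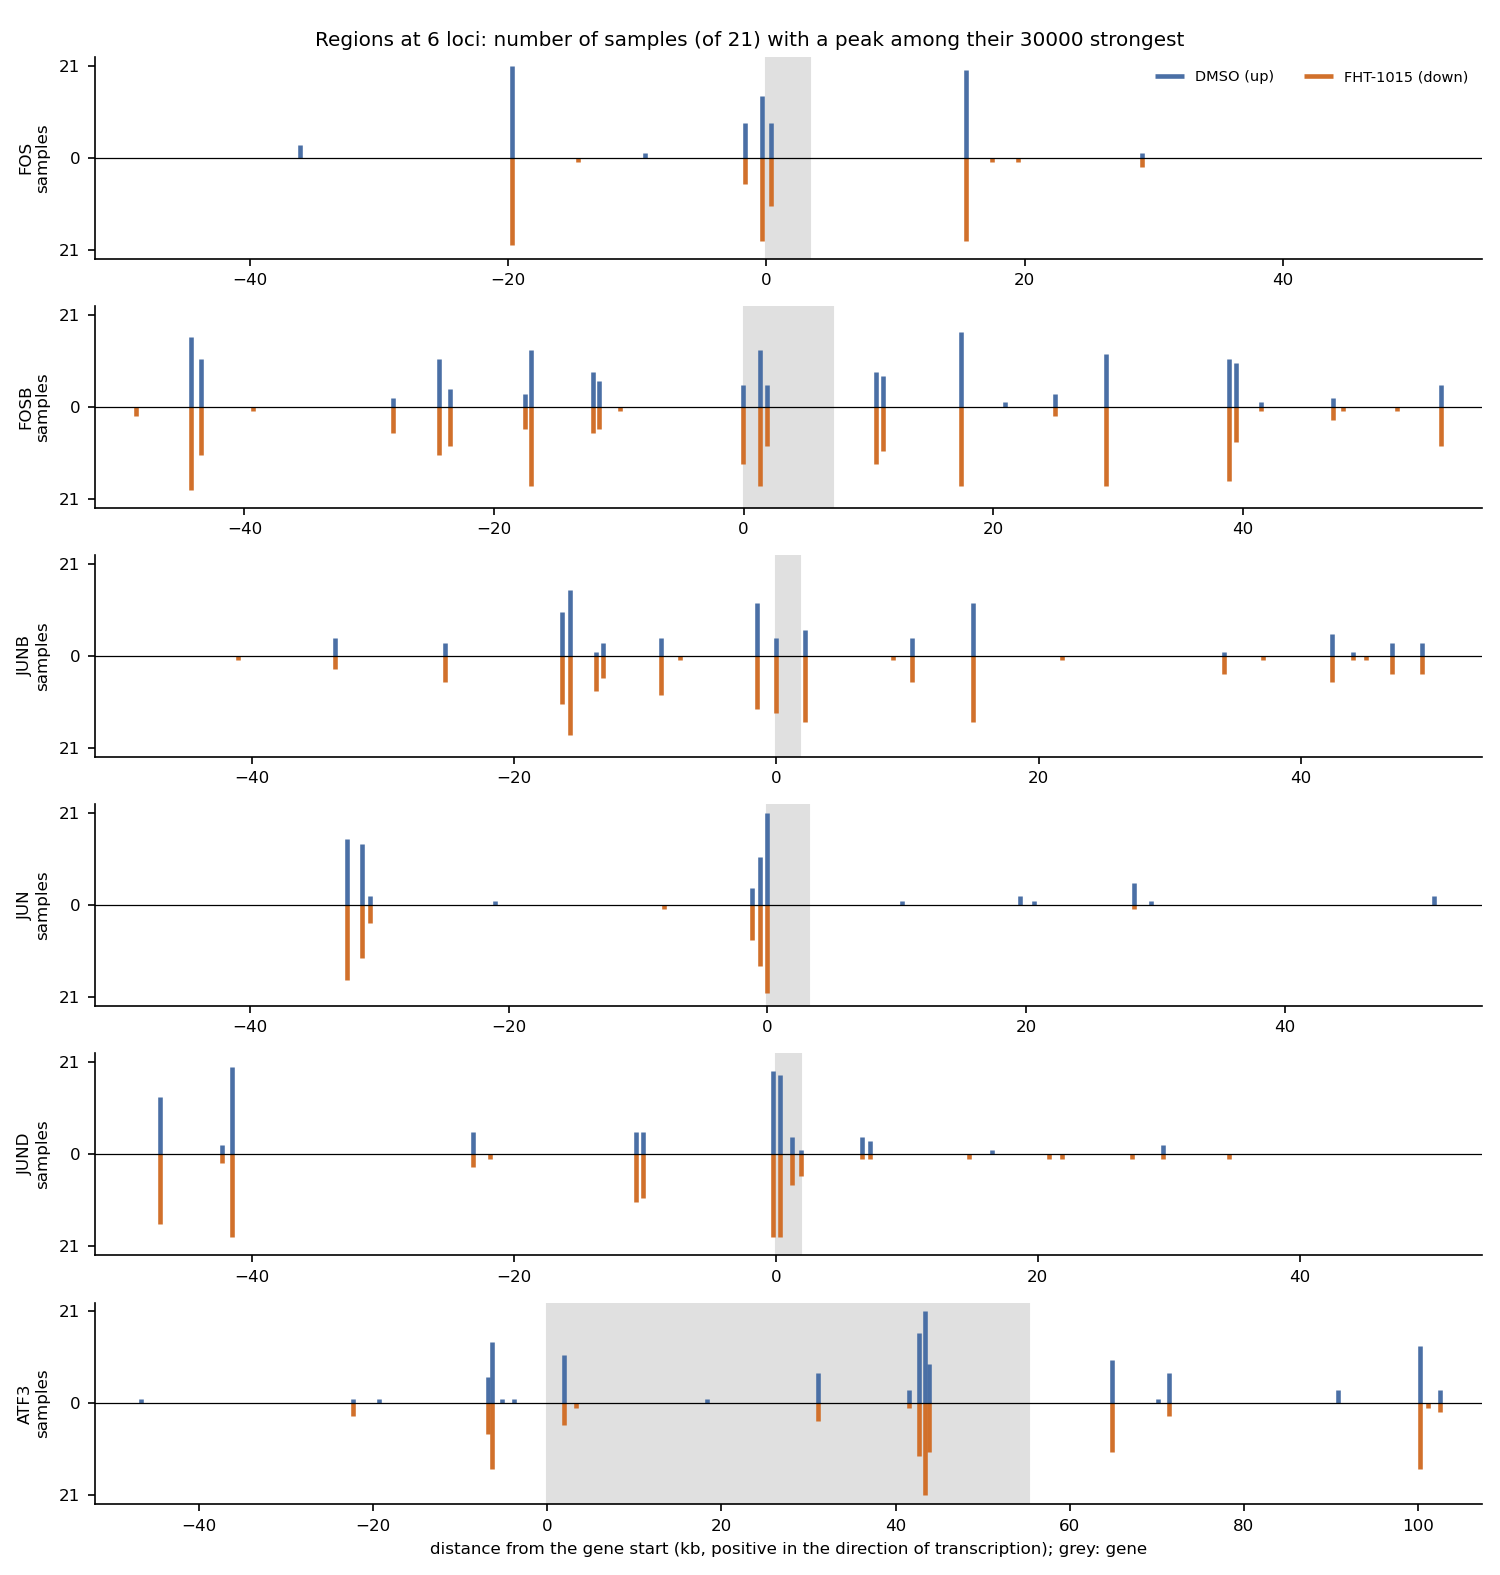
Number of samples (of 21 per treatment) with a peak in each region at 6 loci, DMSO upward in blue and FHT-1015 downward in orange, against the distance from the gene start in kb, with the gene in grey. The pair of tall bars beside FOS and the bar inside ATF3 are near full height in both directions, while the bars at the JUNB start and 3′ end are longer downward.

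Regions at the ends of the AP-1 genes were not lost in any line. A region was counted as lost in a line if it was in 3 of 3 DMSO and 0 of 3 FHT-1015 samples, and as gained in the reverse case, with no test. Summed over lines, 0 of the 46 member gene-end regions present in all DMSO samples were lost, and 5 of the 57 present in all FHT-1015 samples were gained. Over all gene-end regions of the genome the shares were 1.54% and 2.67%. Among strict peaks 0 of 59 were lost and 3 of 62 gained (genome 4.14% and 0.360%), and in the deposited lists 0 of 91 were lost and 0 of 88 gained (genome 2.97% and 0.945%). The 5 gains were the 2 FOS start regions in MV411, the JUNB start and 3′ end in 22RV1, and a region at the 3′ end of JUND in A375. Among strict peaks both regions at the FOS start were in 3 of 3 MV411 samples with either treatment. In MV411, 9.86% of gene-end regions of the genome were gained. With 46 regions and a share of 1.54% in the genome, the count of 0 is near the background.

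Over all classes, 9 of 192 regions at the loci were lost and 20 of 240 gained in lists of equal length (genome 12.6% and 4.21%), 32 of 311 and 4 of 250 among strict peaks (22.6% and 0.594%), and 31 of 571 and 6 of 466 in the deposited lists (16.1% and 4.92%). Without MV411 the gained regions in equal lists were 12. Summed over lines, the losses away from the members' ends were fewer than the genome's share in lists of equal length, with 9 of 146 regions lost (6.16%) and 15 of 183 gained (8.20%), beside 23.1% and 6.36% of all regions outside gene ends. Without 92-1 they were 9 of 142 lost (6.34%) and 15 of 182 gained (8.24%), beside 19.7% and 6.45%. Part of these regions at the loci lie at the ends of other genes, which count as gene-end regions in the genome's figures, and without them 7 of 96 were lost and 8 of 113 gained. The 7 were 4 of 21 in RD (19.05%, all regions outside gene ends 18.37%), 2 of 14 in A375 (14.29%, 21.52%) and 1 of 10 in MV411 (10%, 24.13%). Among strict peaks 30 of 172 such regions were lost (17.4%) and 1 of 121 was gained (0.826%), beside 33.0% and 0.862% in the genome. In the deposited lists, with ends of other genes included, 31 of 480 were lost (6.46%) and 6 of 378 gained (1.59%), beside 20.6% and 7.15% in the genome. Without those ends, 30 of 349 were lost (8.60%) and 5 of 255 gained (1.96%). The losses in the equal lists came from RD (4 at the 8 loci), A375 (4) and MV411 (1), and the gains from MV411 (8), A375 (5), 22RV1 (3), RD (3) and HCT116 (1). DU4475 and 92-1 had none of either. Of the regions at the loci 11.43% were lost in RD (genome 7.495%), 12.12% in A375 (10.47%) and 5.56% in MV411 (17.98%). In the lines with 0 lost, the genome's shares were 2.35% (DU4475), 5.61% (HCT116), 16.47% (22RV1) and 33.66% (92-1). The lines weigh unequally: 92-1 gave 6 of the 192 regions at the loci and 11739 of 125428 in the genome, and DU4475 gave 51 and 20121. RD lost 2 regions at FOS, one of them just upstream of the gene (chr14:75276903-75277402), and 2 upstream of FOSB. A375 lost 2 regions at the ends of other genes near JUND and 2 at ATF3. By gene, strict losses were 8 of 47 at ATF3, 6 of 20 at FOSL2, 6 of 32 at JUN and 1 of 34 at JUNB.

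**Figure D4:**
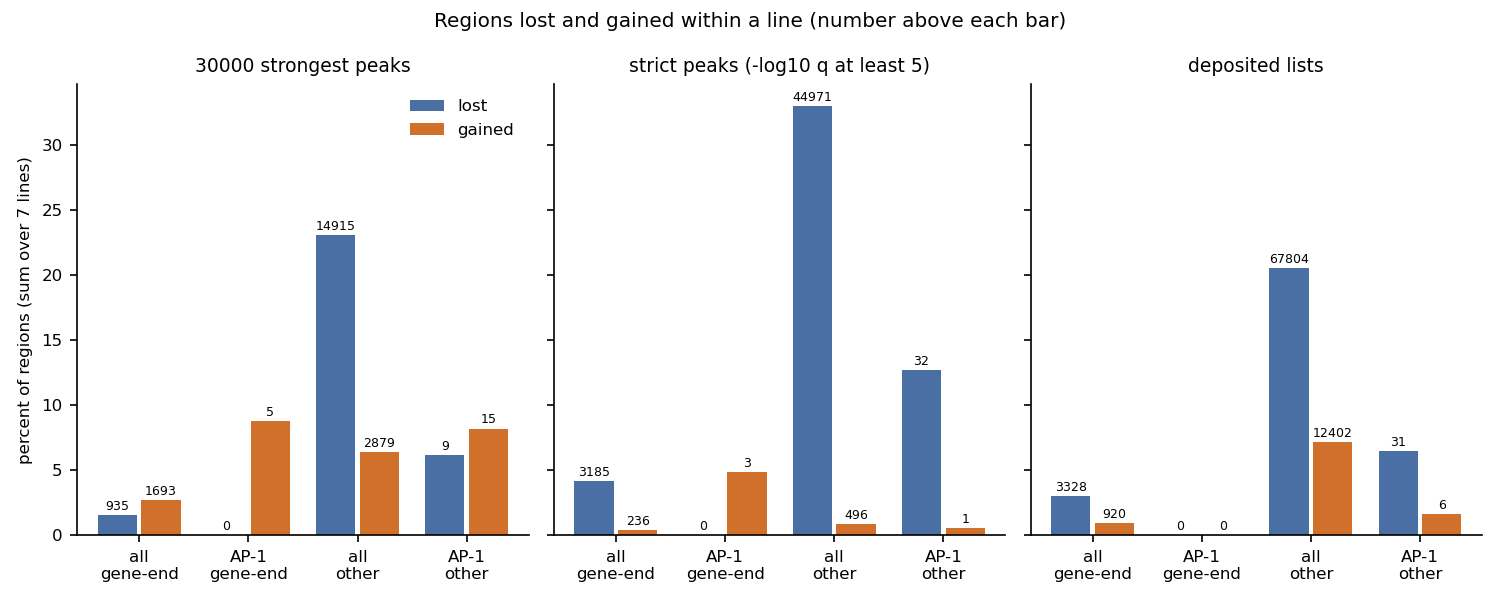
Percent of regions lost (blue, of those in 3 of 3 DMSO samples) and gained (orange, of those in 3 of 3 FHT-1015 samples), summed over 7 lines, for all gene-end regions, AP-1 gene-end regions, all other regions and other regions at AP-1 loci, in 3 kinds of list, with the number lost or gained above each bar. The AP-1 gene-end bars for lost regions are at 0 in the 3 kinds of list. The other regions at AP-1 loci include ends of other genes, whereas all other regions leave out every gene end.

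Genes linked to AP-1 were counted from 3 lists of 15. Among bZIP relatives that share partners with AP-1, 0 of 14 tested were called for gene-end peaks (0 lower and 3 higher at an unadjusted p below 0.05, exact permutation test, beside 257 and 1867 of all 14556 genes). For distal peaks 2 of 15 were called higher and 1 lower, and over all genes 12.9% were higher and 3.26% lower. ATF4, the factor of the integrated stress response, had the smallest p upward (+1.29 distal peaks, higher in 7 of 7 lines, adjusted p = 7.87e-04) and BACH2, a repressor at AP-1-like sites in B cells, the smallest downward (−2.57, lower in 7 of 7 lines, adjusted p = 0.00210), by the exact test. Of the kinases and factors upstream of the family, 0 of 15 were called for gene-end peaks (0 lower and 6 higher unadjusted, exact permutation test), and 3 were called higher and 1 lower for distal peaks. They were led by MAP2K7, a kinase that activates JNK (+3.19, 7 of 7 lines, adjusted p = 1.73e-04), and by ELK3, an ETS factor that works with SRF at the FOS promoter (−0.86, 6 of 7 lines, 0.0335; exact test). Of the textbook targets, 0 of 12 tested were called for gene-end peaks (0 in either direction unadjusted, exact permutation test), and 3 were called higher and 2 lower for distal peaks, TGFB1 (+1.43, 7 of 7 lines, adjusted p = 0.00239) and CD44 (−0.76, 4 of 7 lines, 0.0123; exact test) having the smallest p.

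For the rank of the strongest gene-end peak, 2 bZIP relatives, 2 upstream genes and 0 targets were called upward by the exact permutation test (5, 6 and 1 unadjusted), and 0 downward in any of the 3 lists (1, 0 and 1 unadjusted). Over all 18229 genes 5.92% were called upward and 1.46% downward (3394 and 936 genes unadjusted). ATF4 changed by −1.18 log2 units (adjusted p = 0.0162) and MAPK14, the p38 kinase, by −1.01 (0.00271), shifts of the size seen at FOS. The medians were −0.33 for the relatives, −0.45 for the upstream genes and −0.04 for the targets, beside −0.12 over all genes.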

How the data were processed

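ATAC-seq peak lists of 42 samples were used, grouped by the labels into 14 groups of 3. Per the submitters' processing notes, the authors used Bowtie2, Picard, MACS2, limma and HOMER with build hg38; the sources used here do not say which made the lists, or give versions. Peaks were called per sample. Each deposited peak has a fold enrichment (a ratio) and a p-value and q-value as −log10; these are the authors' values, used only to rank or filter within a list. The deposited score was not used.

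RefSeq genes and promoters (GRCh38.p14) located peaks, with chromosomes 1 to 22 and X kept. Summit counts, ranks (in log2 steps of 0.25) and region calls were compared by exact two-sided permutation within lines, combined over the 7 lines, and p-values were adjusted (Benjamini-Hochberg, threshold 0.05) over genes with a value in at least 2 samples, using Python 3.11.15, numpy 2.4.6 and numba 0.67.0. The p-values measure the spread between replicates that the labels call biological. Scripts were tested on simulated data. Tied p-values were put in seeded random order, a step added after the data were seen. Pileups were recovered from fold and p as whole numbers for 100% of peaks (tolerance 0.01 on −log10 p). The pileup at rank 30000 ranged from 2 to 52, which limits precision. The text names all 8 members, the 3 regions with the smallest p in each direction, the distal region of each gene called in most DMSO samples, and the gene with the smallest p in each direction of each list. Other elements shown were chosen after their values were seen. Members and lists were chosen with earlier results of these data known.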

Additional observations from a re-analysis of the deposited data

How the results depend on the processing

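The 2 calls for gene-end peaks (FOS and JUNB) came to 0 with the 10000 strongest, the 100000 strongest, strict or deposited lists, 1 summit per interval, gene ends within 500 bp or 2 kb, without MV411, or with the replicate block. The 3 calls for distal peaks came to 0 with the 100000 strongest peaks, strict peaks (5 lower) and deposited lists, and 1 (ATF3) was called lower with the 10000 strongest, where 3 were higher but not JUNB. FOSL1 was not called with a 25 kb window (2 calls) or 1 summit per interval (3 calls, JUND among them). The 3 calls by rank came to 2 within the 30000 strongest peaks (FOSB lost), to 1 without MV411 and to 0 among gene-end peaks alone. With only the lines with, or only those without, the word small in their peak names (an alternative chosen after seeing the data, as were another order of ties, gene-end ranks and pileup ranks), gene-end calls were 0 and 0, distal calls 1 and 0 and rank calls 0 and 0; fewer samples enter there. Otherwise the cause was not tested. Lost regions numbered 9 and gained 20, with 12 gained without MV411, 32 and 4 among strict peaks, and 31 and 6 in the deposited lists. Leaving out each of the 42 samples gave 1 to 2 gene-end calls, 3 distal calls, 3 rank calls, 9 to 12 lost and 20 to 25 gained regions, and 0 called regions.

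Of differences called in either setting, signs reversed with strict peaks for gene-end peaks of FOS (−0.10) and distal peaks of FOSB (−1.19), FOSL1 (−1), FOSL2 (−1.76), JUNB (−1.29) and JUND (−1.57), and with deposited lists for gene-end peaks of FOS (−0.19). Some differences called in neither setting also turned sign, among them, with deposited lists, distal peaks of FOSL2 (−4.10) and JUND (−0.76) and gene-end peaks of JUND (−0.10), and, with the 10000 strongest, distal peaks of FOSL2 (−0.14) and FOS (+0.14). Same-numbered replicates did not deviate together (3 of 21 pairs above a correlation of 0.1, range −0.071 to 0.258, 6 of 21 correlating best with their own number). With the replicate block, FOS and JUNB lost their gene-end calls (adjusted p = 0.159 and 0.0900, exact sign-flip test), and the block changed no distal or rank call.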
